A study of Mus musculus with 10 samples.

Results

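Trim52 (ENSMUSG00000022113) is a protein-coding gene on the plus strand of mouse chromosome 14, at chr14:106106198-106135859 in GRCm38. It is 1 gene of the 55536 in the count and TPM tables, found by its symbol in the TPM table and joined to the counts by its gene ID. It was chosen by its separation of the genotypes in these same libraries: it had the smallest p of 19244 genes in edgeR's quasi-likelihood test, with a Benjamini-Hochberg adjusted p of 0.0871. Its own difference between genotypes is therefore a description, without a test. All 10 libraries are RNA from germ cells of female mouse embryos at E16.5, sorted live for the green fluorescence of an Oct4-EGFP transgene, which reports activity of the Pou5f1 locus. Both parents were homozygous for that transgene and carried 1 mutant Taf4b allele, and the strain label is C57BL/6. The 5 Taf4b-heterozygous libraries, the comparison group, thus carry a mutant allele too, and the other 5 are Taf4b-deficient. Each library has 1 of 3 litter dates. The labels do not say whether a library came from a single embryo or from a pool. SDs thus describe the spread between libraries, which may be technical in part, and p-values set a difference against that spread. The test takes the libraries as independent, which libraries of the same litter date may not be.

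Most TRIM proteins share a RING domain, B-box zinc fingers and a coiled coil, and many use the RING to attach ubiquitin to other proteins. Family members differ in what follows these domains, and act in transcription, RNA control, cytoskeletal organisation and antiviral defence. Human TRIM52 is known as a ubiquitin ligase that promotes NF-kB signalling. TAF4b, most abundant in gonads, belongs to TFIID, a core promoter complex of RNA polymerase II genes, and mice need it for a normal oocyte reserve.

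GENCODE vM21, a GRCm38 gene set whose coordinates equal those of the files for 99.5% of the shared gene IDs, annotates a coding and a noncoding transcript of Trim52. The coding transcript is a single exon of 3075 bases with a coding sequence of 233 codons. The noncoding processed transcript has 2 exons and 584 bases, and its last exon ends the gene. No gene of the deposited tables overlaps Trim52. Of the 3468 different runs of 50 bases in its transcripts, 3 occur on either strand in a transcript of another annotated gene, the long noncoding RNA Gm32856.

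The stretch upstream of the annotated start is shown because TFIID, to which the mutated protein belongs, acts at core promoters. These are the 250 bases before the start, at chr14:106105948-106106197 on the plus strand of GRCm38.p6, from RefSeq, with capitals marking motif matches.
Trim52: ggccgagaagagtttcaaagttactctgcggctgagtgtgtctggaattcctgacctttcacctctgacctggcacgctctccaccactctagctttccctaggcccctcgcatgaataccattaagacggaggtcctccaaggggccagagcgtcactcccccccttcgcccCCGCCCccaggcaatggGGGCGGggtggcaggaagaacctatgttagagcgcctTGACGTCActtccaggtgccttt
The window holds 2 matches to GGGCGG, the GC box bound by SP factors, with first bases at -77 on the minus strand and -60 on the plus strand, counted back from the start. It holds 1 match to TGACGTCA, the palindromic cyclic AMP response element, at -23. It holds no CCAAT, the box bound by NFY, and no TATAAA. Both strands were searched, and the matches do not overlap. Of 32851 RefSeq windows of this length, 32.7% hold the GC box, 33.8% CCAAT, 12.4% TATAAA and 1.55% TGACGTCA. The GC content was 59.2%, against a median of 52.4% over all windows. A match describes letters in this window and says nothing of binding.

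Trim52 was lower in every deficient library than in every heterozygous library. On the CPM scale, CPM being a count relative to a library size scaled by TMM (trimmed mean of M-values), heterozygous 1, 2, 3 and 5 lay at 76.6, 88.4, 100.1 and 94.0, and the library labelled heterozygous 4 at 108. Deficient 1 to 5 lay at 42.1, 39.2, 47.3, 38.3 and 37.2 CPM. The lowest heterozygous library, heterozygous 1, was 1.62-fold above the highest deficient library, deficient 3. The mean was 93.4 ± 12.0 CPM over the heterozygous and 40.8 ± 4.05 CPM over the deficient libraries (SD, n = 5 each), a 2.29-fold difference and a fitted log2 fold change of -1.19 ± 0.16 (SE). These values chose the gene. Of all 19244 genes, 1.60% likewise had every deficient library below every heterozygous one and 1.94% every deficient library above, or 3.53% in either direction. In bulk RNA, fewer cells that express Trim52 and less Trim52 RNA per cell cannot be told apart.

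Counting error was a small part of this spread. Library totals ran from 16707216 to 26983565 counts, of which Trim52 had 1598, 1901, 2316, 2286 and 2052 in the heterozygous and 906, 639, 1016, 849 and 845 in the deficient libraries, in the order of their numbers. The raw counts of the genotypes did not overlap either. The Poisson error of 1 library was 2.08% to 2.50% of the heterozygous and 3.14% to 3.96% of the deficient values, for counting alone. The coefficient of variation between libraries in CPM was 12.8% and 9.93%.

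The scale changed the spread among heterozygous libraries more than the separation. Divided by library totals alone, the heterozygous values ranged from 71.0 to 126 CPM, a 1.77-fold range against 1.41-fold after TMM scaling, and the deficient values from 35.9 to 44.4 CPM. In the authors' TPM, a level per transcript length, heterozygous 1, 2, 3 and 5 lay at 23.2, 31.4, 30.1 and 36.8, and the library labelled heterozygous 4 at 45.7. Deficient 1 to 5 lay at 13.7, 12.5, 14.5, 11.5 and 14.2 TPM. The heterozygous range was 1.97-fold in TPM, and the means were 33.4 ± 8.39 and 13.3 ± 1.27 TPM (SD, n = 5 each), a 2.52-fold difference. On each of these 3 scales the library labelled heterozygous 4 was the highest and heterozygous 1 the lowest of its genotype, and deficient 3 the highest of the other. TPM per unscaled CPM ran from 0.327 in heterozygous 1 to 0.363 in the library labelled heterozygous 4, and from 0.319 to 0.346 among deficient libraries.

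**Figure D1:**
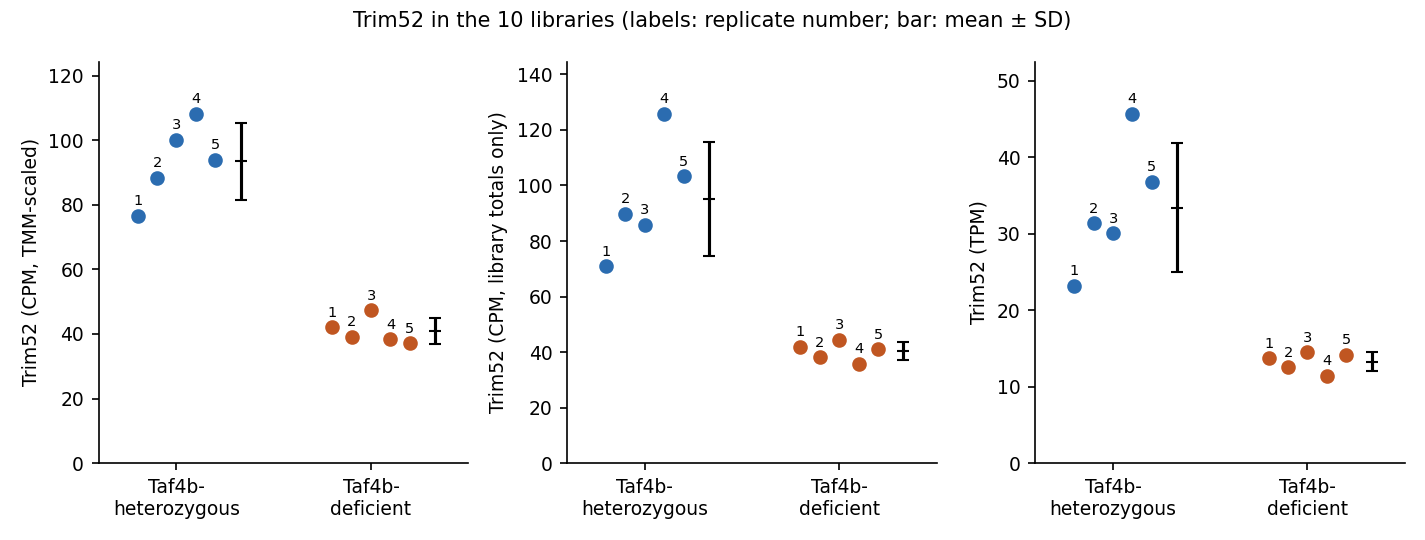
Trim52 in each library as TMM-scaled CPM, as CPM on library totals alone and as TPM, by genotype; points are libraries with their replicate numbers, and bars give the mean and SD over 5 libraries. In scaled CPM the heterozygous points lie between 76.6 and 108 and the deficient points between 37.2 and 47.3, and the heterozygous range relative to its lowest value is widest in TPM (1.97-fold).

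In falling order of CPM, the libraries were the one labelled heterozygous 4, heterozygous 3, 5, 2 and 1, then deficient 3, 1, 2, 4 and 5. The step from heterozygous 1 to deficient 3 was 0.69 on the log2 CPM scale, wider than the whole range of 0.50 among heterozygous and 0.35 among deficient libraries. Neighbours of the same genotype in that order therefore differ by less than the step between genotypes. In falling order of TPM, the order was the library labelled heterozygous 4, heterozygous 5, 2, 3 and 1, then deficient 3, 5, 1, 2 and 4.

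On the TMM-scaled log2 CPM scale, Trim52 combined a difference that many genes exceed with a narrow spread within each genotype. Its difference ranked 707 in size among the 19244 tested genes, and 127 genes whose genotypes did not overlap, Trim52 among them, differed by at least as much. Its SD within genotype was 0.166 on the log2 CPM scale, against a median of 0.494, and 1.73% of genes had a smaller one. Among the 2078 genes within 0.5 of its mean log2 CPM of 5.94, the median SD was 0.348 and 4.67% were narrower. The ratio of difference to SD ranked 1, and the gap between the nearest libraries of opposite genotype ranked 9. The 5 widest gaps belonged to Pifo, Vmn1r-ps135, Gcm2, Gm15835 and Hist1h4k, chosen here after their values were seen, all at a mean log2 CPM of at most 2.26 in either genotype. The narrow spread among heterozygous libraries depends on the scale. Their coefficient of variation was 12.8% in TMM-scaled CPM, 21.7% in CPM on library totals and 25.1% in TPM. Among deficient libraries it was 9.93%, 8.24% and 9.56%. These ranks use TMM-scaled values and the contrast that chose the gene.

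**Figure D2:**
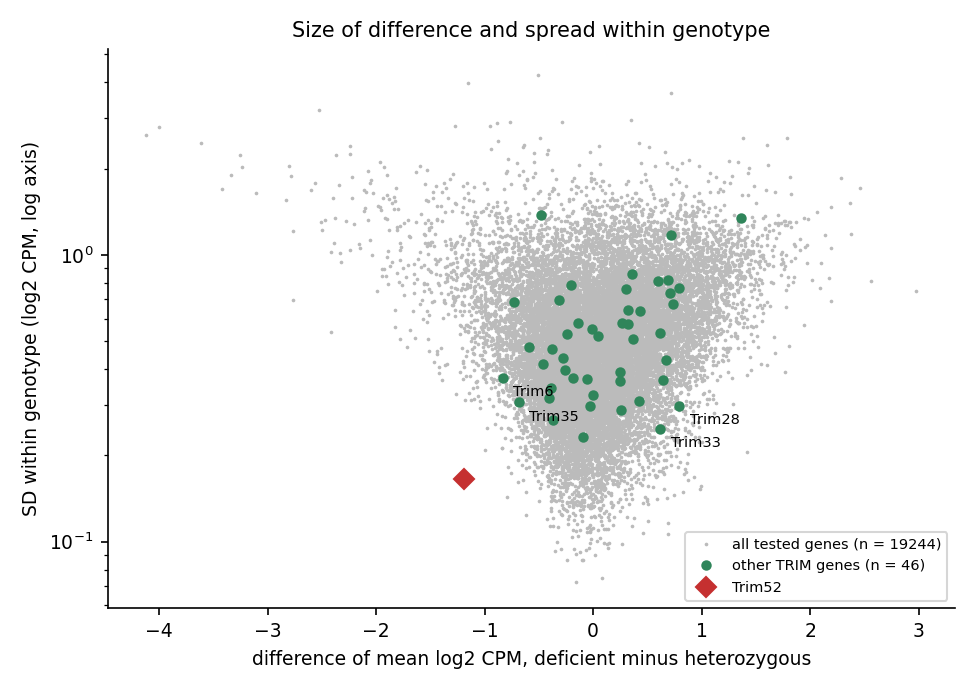
Difference of mean log2 CPM between genotypes against the SD within genotype (log axis) for the 19244 tested genes, with the 46 other tested TRIM genes in green and Trim52 as a red diamond. Trim52 sits at a difference of -1.19 and an SD of 0.166, at the lower left edge of the cloud of genes.

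The difference was negative at each litter date, which follows from the separation of the genotypes that chose the gene. Only its size could vary by date. On the log2 CPM scale it was -0.97 at the first date (2 heterozygous libraries and 1 deficient), -1.27 at the second (2 and 2) and -1.31 at the third (1 and 2). In mean CPM these were 82.5 against 42.1, 104 against 43.2 and 94.0 against 37.7. For Taf4b the log2 differences at the same dates were -1.80, -0.26 and -0.62, so the date with the smallest Trim52 difference had the largest Taf4b difference. In the authors' deposited table, Trim52 had a mean normalized count of 1407, a log2 fold change of -1.18 with a standard error of 0.17, and ranked 2 by adjusted p among 17881 genes. The model behind that table is not given in the labels or headers.

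The library with the least Taf4b among the heterozygous libraries had the most Trim52. Heterozygous 1, 2, 3 and 5 held 271, 290, 142 and 101 CPM of Taf4b. The library labelled heterozygous 4 held 65.7 CPM, inside the deficient range of 58.2 to 81.7 CPM. In the authors' TPM its Taf4b was 19.6, just above the deficient range of 15.6 to 18.6 TPM. The other heterozygous libraries held 28.0 to 72.9 TPM, so Taf4b does not clearly bear out its label on either scale. That library had the highest Trim52 level of all 10, and without it the fitted log2 fold change of Trim52 was -1.14. Heterozygous 1 and 2, highest in Taf4b, were the lowest of their genotype in TMM-scaled CPM of Trim52, whereas in TPM and in unscaled CPM heterozygous 3 was below heterozygous 2. The count covers all of Taf4b, and reads over the mutated stretch alone were not analysed here.

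Since the genotypes do not overlap in Trim52, libraries that stand apart in blood RNA or meiotic stage must lie on their genotype's side. Hba-a1, an alpha-globin gene of red blood cells, reached 798 CPM in heterozygous 5, 590 in deficient 5 and 260 in the library labelled heterozygous 4, while the remaining 7 libraries held 24.0 to 102. Stra8, a driver of meiotic entry, was down to 10.3 CPM in heterozygous 5 and 56.3 in the library labelled heterozygous 4. The remaining heterozygous libraries held 221 to 965, and deficient 1 to 5 held 630, 415, 447, 882 and 156 CPM. Heterozygous 5, deficient 5 and the library labelled heterozygous 4 were then left out. In the rest, Trim52 was at 88.3 ± 11.8 CPM (SD, n = 3 heterozygous) and 41.7 ± 4.04 CPM (SD, n = 4 deficient). The fitted log2 fold change was -1.08 there. The part of blood RNA or stage in the Trim52 difference was not tested.

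**Figure D3:**
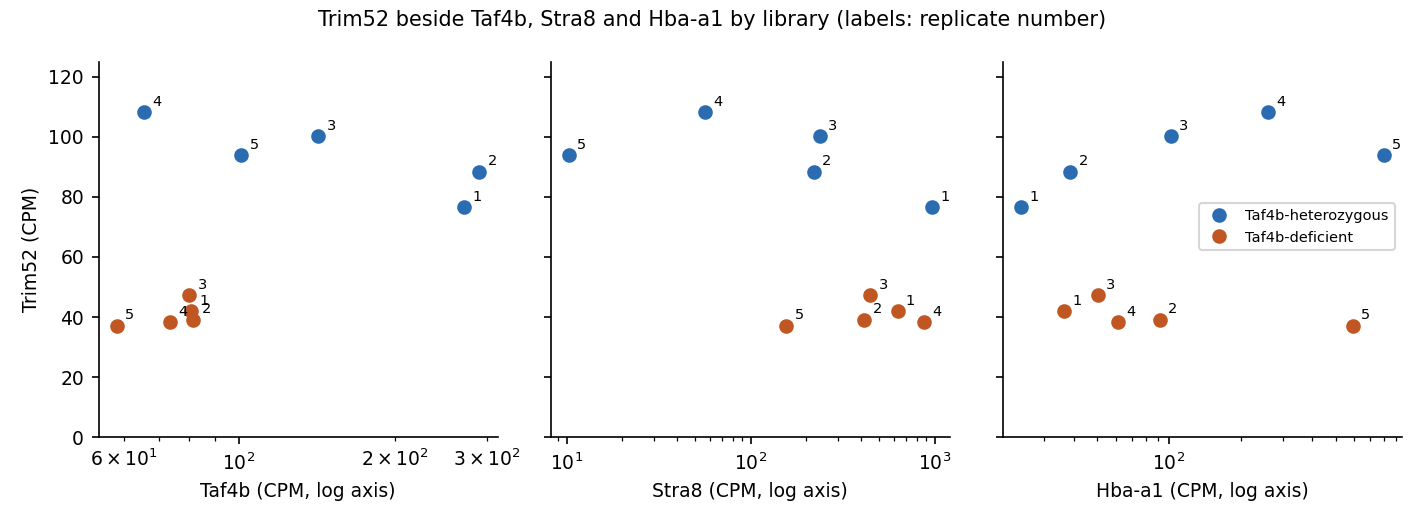
Trim52 CPM against Taf4b, Stra8 and Hba-a1 CPM, each on a log x axis, with 1 point per library labelled by replicate number and coloured by genotype. The library labelled heterozygous 4 pairs 65.7 CPM of Taf4b with 108 CPM of Trim52, and deficient 5 pairs 590 CPM of Hba-a1 with 37.2 CPM of Trim52.

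The labelled cell type showed in its markers Ddx4, Dazl and Sycp3. The summed level of 6 germ cell genes (Ddx4, Dazl, Sycp3, Pou5f1, Dppa3 and Kit) ran from 2817 to 4686 CPM over heterozygous and from 2334 to 3933 over deficient libraries. Ddx4, Dazl and Sycp3 made up most of it, at 388, 1224 and 588 CPM in the lowest library of each. Kit was at 9.28 to 89.2 CPM and Dppa3 at 1.86 to 114 CPM. Pou5f1, whose reporter served for the sort, was at 0.173 to 1.16 CPM. For other cell types the sums, heterozygous range first, were 31.3 to 79.5 and 25.9 to 80.9 CPM over 7 pregranulosa genes, 13.1 to 61.5 and 16.8 to 99.5 over 6 stromal genes, and 15.1 to 83.4 and 12.5 to 55.0 over 5 endothelial genes. They were 65.0 to 2083 and 107 to 1605 CPM over 6 erythroid genes and 73.5 to 131 and 64.0 to 94.3 over 5 macrophage genes. The genotypes overlapped for each of these sums, and no marker was at 0 in all libraries. With 7 meiotic and oocyte stage genes added, edgeR's quasi-likelihood test called none of the markers, and an unadjusted p under 0.05, which 16.6% of all tested genes had, was reached by 2 of 7 pregranulosa, 1 of 6 stromal, 1 of 5 endothelial and 4 of 7 stage genes and by no germ cell, erythroid or macrophage gene. DESeq2 called 2 of the stage genes (3.13% of all genes) and limma voom 1 (2.65%), all of them Sohlh1 or Nobox, oocyte transcription factors, and neither called any other marker. Their part in the Trim52 difference was not tested.

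Among TRIM genes, Trim52 was one of the more abundant in heterozygous libraries and less so in deficient ones. The family was every symbol of Trim followed by a number plus Pml, Mid1, Mid2 and Mefv, 73 genes with Trim52, of which 32 had a mean TPM of at least 1 and 14 of at least 10. Within single libraries Trim52 ranked between 2 and 8 by TPM in the heterozygous and between 10 and 12 in the deficient group. By mean TPM it ranked 5 in the heterozygous group, below Trim28 (34.3 ± 4.33) and above Trim26 (29.2 ± 9.20, SD, n = 5 each), and both ranges overlap that of Trim52. In the deficient group it ranked 11, between Trim41 (17.0 ± 3.53) and Trim50 (12.5 ± 5.56, SD, n = 5 each), again with overlapping ranges. Above these stood Trim66, Trim37, Trim23 and Trim28 in both groups, with Trim37, a ubiquitin ligase of centrosome control, at 59.3 ± 20.6 and 67.4 ± 19.9 TPM and Trim23 at 46.0 ± 11.4 and 49.8 ± 7.14 TPM (SD, n = 5 each). Trim66 had a mean of 129 TPM from only 1216 counts in all libraries, while Trim52 had 14408 counts, so the place of Trim66 by TPM is uncertain.

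A ratio to another TRIM gene in the same library does not depend on how libraries are scaled to each other. The genes next to Trim52 by mean TPM over all libraries were Trim27, a ubiquitin ligase first known from RET fusions, and Trim59. The TPM ratio of Trim52 to Trim27 was 0.902, 1.02, 1.41 and 1.31 in heterozygous 1, 2, 3 and 5, and 2.62 in the library labelled heterozygous 4. It was 0.625, 0.623, 0.604, 0.512 and 0.608 in deficient 1 to 5, all below the heterozygous values. The ratio to Trim59 ran from 1.03 to 4.45 and from 0.542 to 0.883 in the same groups, also without overlap. Both ratios hold the Trim52 values that chose the gene, so they describe the same separation and are no further test of it.

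**Figure D4:**
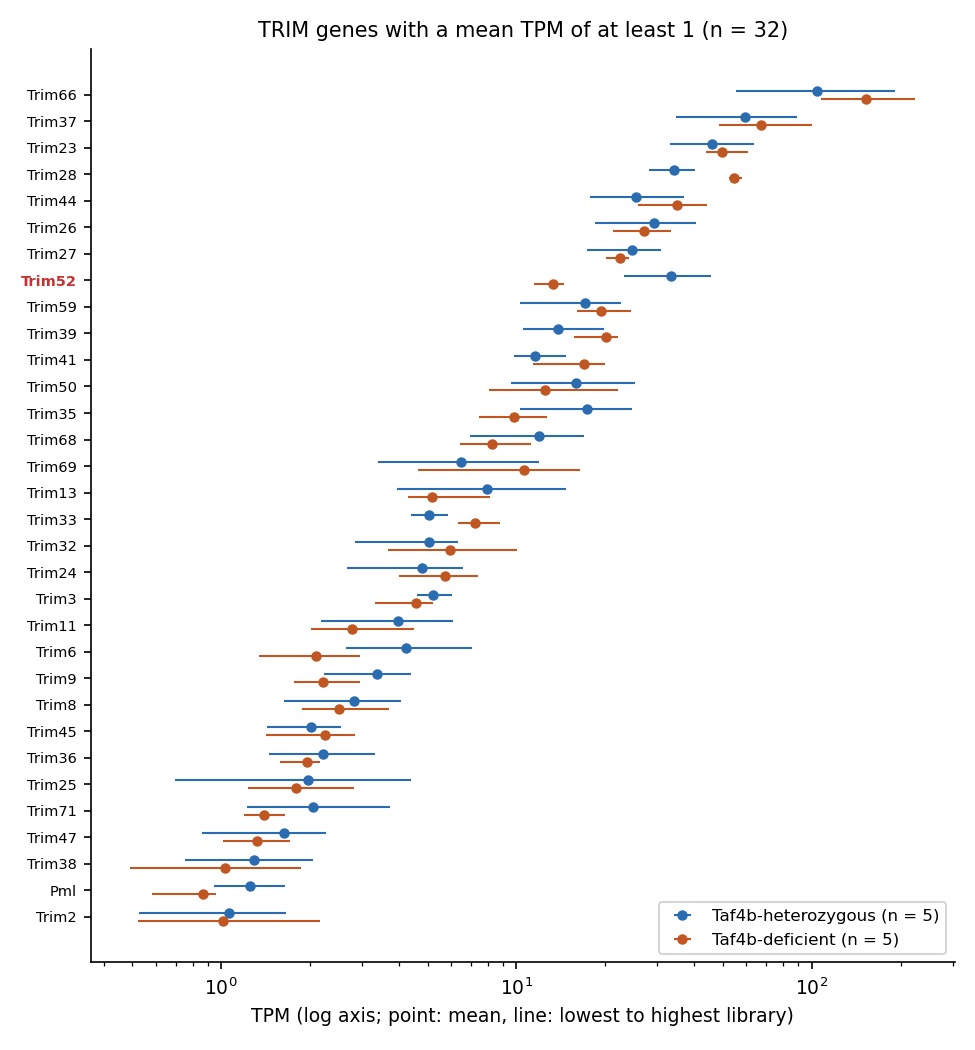
Levels in TPM, on a log axis, of the 32 TRIM genes with a mean TPM of at least 1, ordered by mean; points are genotype means and lines run from the lowest to the highest of 5 libraries. The lines of Trim52, 23.2 to 45.7 TPM in heterozygous and 11.5 to 14.5 TPM in deficient libraries, do not overlap.

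No other TRIM gene passed the threshold in the main test. Of the other 72, 46 passed the expression filter, and edgeR's quasi-likelihood test called 0, as it called 0 of all 19244 genes (0%). An unadjusted p under 0.05 was reached by 4 as higher in deficient libraries (7.45% of all genes were) and 2 as lower (9.13% of all genes were). Together these are 13.0% of the 46, near the 16.6% of all tested genes. The median log2 fold change of the 46 was 0.05, with 24 positive and 22 negative, against -0.02 over all genes. The genotypes did not overlap for Trim6, which was lower in deficient libraries, and for Trim28 and Trim33, which were higher, against 1.60% and 1.94% of all tested genes in these directions. DESeq2 called Trim28 and Trim6 (3.13% of all genes were called) and limma voom with quality weights called Trim28 and Trim35 (2.65%). The authors' deposited table calls Trim28, Trim39 and Trim33 higher, and Trim6 and Trim35 lower, besides Trim52 (6.55%). The share called by edgeR over all genes was 0.561% without the low-count filter, 3.07% without heterozygous 1, 0.00505% without heterozygous 2 and 0.00520% with replicate number in the model.

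The transcriptional coregulators of the family, Trim24, Trim28, Trim33 and Trim66, all had a positive log2 fold change, with a median of 0.60, and none passed edgeR's test. Trim28 encodes the corepressor through which KRAB zinc finger proteins silence retroelements. It lay at 136, 109, 156 and 103 CPM in heterozygous 1, 2, 3 and 5, with 77.9 CPM for the library labelled heterozygous 4. Deficient 1 to 5 lay at 195, 203, 221, 204 and 161 CPM, all above the heterozygous values, with a log2 fold change of 0.76 ± 0.20 (SE) and an adjusted p of 0.145 by edgeR. In TPM, Trim28 was 34.3 ± 4.33 and 54.7 ± 2.35 (SD, n = 5 each), against 33.4 and 13.3 for Trim52. Trim33, a regulator of SMAD-dependent transcription, ranged from 25.5 to 37.5 CPM over heterozygous and from 40.5 to 62.2 over deficient libraries (log2 fold change 0.62 ± 0.19, SE, adjusted p = 0.162 by edgeR).

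Trim6, grouped with innate immunity, ranged from 11.8 to 22.6 CPM over heterozygous and from 6.09 to 10.4 over deficient libraries (log2 fold change -0.87 ± 0.25, SE, adjusted p = 0.159 by edgeR). In that group 13 genes were tested, 7 positive and 6 negative, and Trim26, the highest in CPM, averaged 155 and 152 CPM. The 4 NHL-repeat genes, among them Trim71 (Lin41), an RNA-binding repressor of stem and germ cells, had a median log2 fold change of -0.02. Trim3, the highest of them in CPM, averaged 19.1 and 17.8 CPM, while Trim32 was above it in mean TPM (5.50 against 4.90). The 5 tested genes for microtubule-binding members were all negative, with a median of -0.30. None of those 5 had an unadjusted p under 0.05, Trim9 (-0.52 ± 0.31, SE) and Trim36 (-0.07 ± 0.24, SE) included. Of 8 genes known from testis or early embryo, 1 was tested, Trim69, which averaged 10.3 and 17.5 CPM. Outside these groups, Trim35 ranged from 43.4 to 75.1 CPM and from 31.0 to 49.9 CPM (log2 fold change -0.69 ± 0.20, SE, adjusted p = 0.159 by edgeR). The remaining genes with the smallest p were Trim68 and Trim65, at log2 fold changes of -0.39 and -0.84, and Trim39, Trim41 and Trim62, at 0.63, 0.62 and 0.93. Trim44, among the 5 highest by TPM, was at 0.55.

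The genes most like Trim52 over the 10 libraries were Pcca, Rab32, Atp5a1, Chfr, Fastkd2 and Kank4os. Likeness was the Pearson correlation of log2 CPM among 13666 genes with a symbol whose mean log2 CPM reached 1. Since Trim52 was chosen for separating the genotypes, a gene that separates them will be like it, and neither the correlations nor the differences of these genes are tested here. The correlations, each followed by Spearman's, were 0.975 and 0.879 for Pcca, 0.968 and 0.806 for Rab32, 0.965 and 0.855 for Atp5a1, 0.964 and 0.976 for Chfr, 0.959 and 0.952 for Fastkd2, and 0.955 and 0.915 for Kank4os. Pcca encodes a subunit of mitochondrial propionyl-CoA carboxylase, Atp5a1 the alpha subunit of ATP synthase and Fastkd2 a mitochondrial RNA-binding protein. Rab32 encodes a small GTPase of lysosome-related organelles, Chfr a ubiquitin ligase of a mitotic checkpoint, and Kank4os is a long noncoding RNA. In all, 69 genes had a correlation above 0.9 and 57 below -0.9, and the highest among other TRIM genes was 0.882.

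These 6 genes had smaller log2 fold changes than Trim52. Pcca averaged 38.7 ± 4.96 CPM in heterozygous and 23.8 ± 2.18 in deficient libraries, and Atp5a1 659 ± 86.6 and 426 ± 24.9 CPM (SD, n = 5 each). The log2 fold changes were -0.70 for Pcca, -0.63 for Atp5a1, -0.81 for Rab32, -0.83 for Chfr, -0.76 for Fastkd2 and -1.13 for Kank4os. The most negative correlations, again with Spearman's second, were -0.975 and -0.867 for Foxk2, a forkhead transcription factor, -0.973 and -0.939 for Dab2ip, a Ras GTPase-activating protein, and -0.973 and -0.794 for Dpm1, the catalytic subunit of dolichol-phosphate mannose synthase. Foxk2 ranged from 8.56 to 11.6 CPM over heterozygous and from 17.5 to 22.0 over deficient libraries (log2 fold change 1.00).

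Within genotypes, the genes most like Trim52 were Akt2, Parn, Cyb5b and Cacfd1. On deviations from the genotype means the correlations over the 10 libraries, with Spearman's second, were 0.948 and 0.939 for Akt2, a kinase of insulin signalling, 0.946 and 0.976 for Parn, a poly(A)-specific ribonuclease, 0.931 and 0.879 for Cyb5b, an outer mitochondrial membrane cytochrome, and 0.925 and 0.855 for Cacfd1. As for Trim52, heterozygous 1 was the lowest heterozygous and deficient 3 the highest deficient library for each of the 4. These genes were picked for following Trim52 within genotypes, so the shared extremes are a description. Parn was at 75.4 CPM in heterozygous 1 and 84.1 to 90.7 in the rest of that group, and at 76.1 CPM in deficient 3 and 61.4 to 68.7 in the rest of its group. For Taf4b the correlation with Trim52 was 0.518 over all 10 libraries and -0.584 on deviations.

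**Figure D5:**
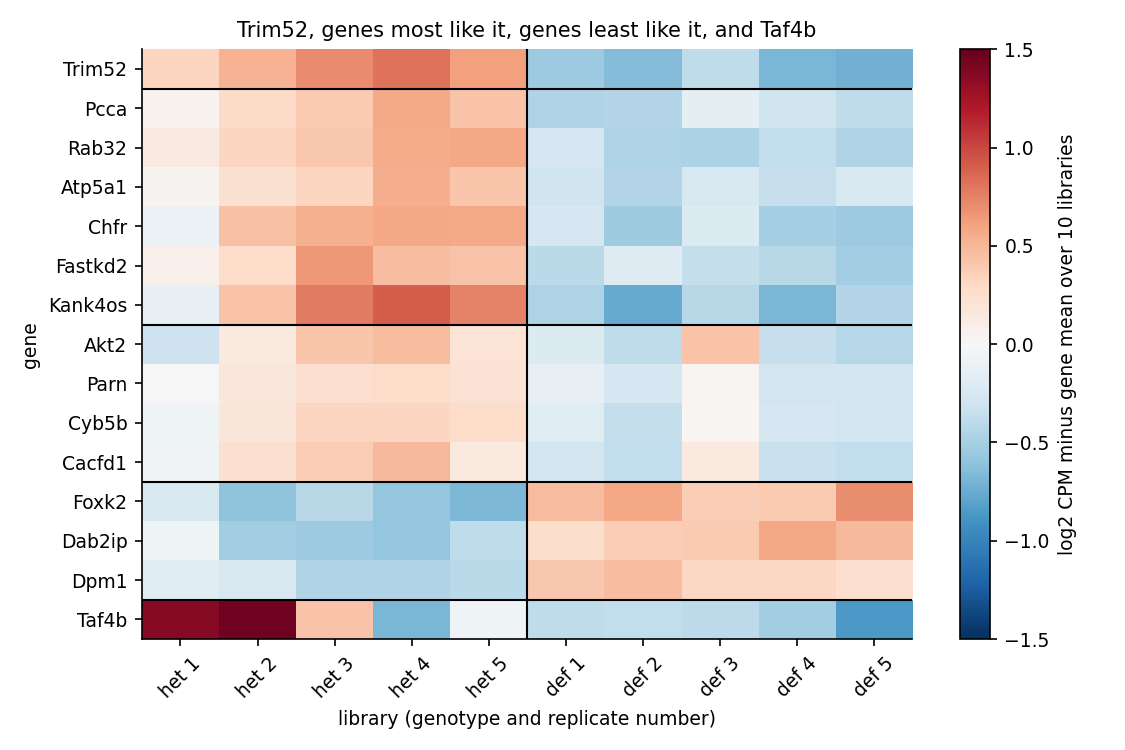
Heat map of log2 CPM minus each gene's mean over the 10 libraries (columns) for Trim52, the 6 genes most like it, the 4 most like it on deviations from the genotype means, the 3 most unlike it, and Taf4b, with values beyond the ends of the colour scale drawn in the end colours. Trim52 and the 6 genes are higher in heterozygous libraries, while Taf4b is highest in heterozygous 1 and 2 (271 and 290 CPM).

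The genotypes overlapped for every tested gene near Trim52, as for most genes, since 3.53% of all tested genes did not overlap. The tables list 30 genes that start within 1 Mb of its start, of which 7 were tested. Of these, edgeR's quasi-likelihood test, DESeq2, limma voom and the authors' deposited table called 0. Over all genes these called 0%, 3.13%, 2.65% and 6.55%, so 0 of only 7 genes is near those shares. At an unadjusted p under 0.05 in edgeR, 2 were higher, Rbm26 (0.68 ± 0.25, SE, as log2 fold change) and the pseudogene Gm48937 (1.13 ± 0.45, SE), and 1 was lower. These are 42.9% of the 7, against 16.6% of all tested genes (7.45% higher and 9.13% lower). The lower one is the long noncoding RNA 5430440P10Rik, starting at -679 kb from Trim52. It lay at 0.335, 6.74, 3.72 and 47.6 CPM in heterozygous 1, 2, 3 and 5, at 26.5 for the library labelled heterozygous 4, and at 0.797 to 6.24 CPM in the deficient group. The log2 fold change was -2.91 ± 0.95 (SE, adjusted p = 0.182 by edgeR), and the highest library of each genotype is the one highest in Hba-a1. All 5 neighbours with a mean of at least 1 TPM lie upstream, and the highest mean downstream was 0.143 TPM. The closest of the 5, the long noncoding RNA Gm10076 at -424 kb, averaged 32.8 ± 10.7 and 40.5 ± 8.57 CPM (SD, n = 5 each). Ndfip2, an adaptor of Nedd4-family ubiquitin ligases at -848 kb, averaged 140 ± 24.2 and 117 ± 24.9 CPM (SD, n = 5 each). Spry2, an inhibitor of receptor tyrosine kinase signalling and the nearest protein-coding gene in the window, averaged 1.30 and 1.02 CPM.

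Genes of the NF-kB pathway, with which human TRIM52 is linked, did not pass the threshold in the main test either. All 22 were tested, and edgeR's quasi-likelihood test (0% of all genes called), DESeq2 (3.13%) and limma voom (2.65%) called 0. The authors' deposited table (6.55%) calls Map3k7 higher. For 22 genes, these counts are near the shares over all genes. An unadjusted p under 0.05 in edgeR was reached by 3, all higher in deficient libraries, which is 13.6% against 16.6% of all genes. These were Tab2, Map3k14 and Map3k7, kinases or kinase adaptors upstream of the IkB kinases. Tab2 averaged 24.5 ± 2.47 and 38.3 ± 8.56 CPM (SD, n = 5 each), a log2 fold change of 0.64 ± 0.20 (SE, adjusted p = 0.172 by edgeR), and Map3k14 1.76 ± 0.775 and 3.31 ± 0.926 CPM. The median log2 fold change of the list was -0.08, with 9 positive and 13 negative. Tnip1 (-0.38 ± 0.23, SE) and Ikbkb (-0.32 ± 0.19, SE) had the smallest p among the negative ones. The subunit genes Rela and Nfkb1 averaged 59.0 and 8.93 CPM in heterozygous and 52.4 and 9.95 CPM in deficient libraries, and the inhibitor gene Nfkbia 81.4 and 66.8 CPM.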

How the data were processed

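RNA sequencing of 10 libraries was used. The deposited counts are whole numbers per gene, from featureCounts (Subread 1.6.2) after trimming with Trim Galore 0.5.0 and alignment with HISAT2 2.1.0 to GRCm38, as the submitters' processing notes list these tools. How strand and multi-mapped reads were counted is not given in the sources used here. The authors deposited TPM from StringTie 1.3.3b too. A deposited table of theirs is a DESeq2 comparison with a mean normalized count (a signal averaged over libraries), a log2 fold change, a score (Wald statistic) and a p-value for each gene, according to its headers, and Taf4b gave the direction of its fold changes.

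The main test was edgeR 4.0.16 (R 4.3.3), the quasi-likelihood test on genotype with TMM scaling and edgeR's expression filter, and with Benjamini-Hochberg adjustment over 19244 genes at 0.05. CPM use the TMM-scaled sizes, and log2 CPM a prior count of 2. An SE is the fold change, without sign, over the root of F. The 382 genes without a symbol took 0.0632% to 0.0945% of a library's counts. The test was tested on simulated data. Alternatives were other scalings and filters, DESeq2 1.42.0, limma 3.58.1 (voom with quality weights, and log2 of TPM plus 1 or 0.1), terms for litter date or for replicate number, and libraries or dates left out.

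Trim52, the lists and the rules were chosen with earlier results of these data known. The rule names the 6 genes most and 3 least like Trim52 and the 4 most like it on deviations. Of TRIM genes it names the 5 highest in TPM, those next to Trim52 and the 5 with the smallest p in each direction. It adds the member of each TRIM role group highest in CPM. Last come the 3 nearest neighbours on each side with at least 1 TPM, and 2 NF-kB genes in each direction. Hba-a1, Stra8, Sohlh1, Nobox, Trim50, Trim71, Map3k7, Rela, Nfkb1, Nfkbia, Spry2, Rbm26, Gm48937 and the genes with the widest gaps were named after their values were seen.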

Additional observations from a re-analysis of the deposited data

Results flagged for a closer look

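No Trim52 value stood apart from the others of its genotype by Dixon's test at 95%, in CPM or in TPM. Among the other genes named, 10 values lay far from the other 4 of their genotype, out of 86 groups of 5 libraries examined in all. Chance gives about 1 in 20 for independent groups, but these genes share the same libraries. Akt2, Cacfd1 and Chfr were also picked for likeness to Trim52, so the count cannot be set against that rate. Deficient 3 was high for Akt2 (78.0 CPM, the others 43.1 to 50.4), Cacfd1 (61.7 CPM, the others 43.0 to 46.1) and Trim9 (3.16 CPM), and low for Tab2 (23.4 CPM, the others 39.1 to 44.7). Deficient 5 was low for Trim39 (76.6 CPM) and high for Ndfip2 (161 CPM) and 5430440P10Rik (6.24 CPM). Heterozygous 1 was low for Chfr (39.3 CPM, the others 56.4 to 62.4) and high for Trim69 (21.2 CPM). Deficient 2 was low for Trim65 (0.859 CPM).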

How the results depend on the processing

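The log2 difference of Trim52 was negative under all 24 alternatives, from -1.30 to -1.08, and moved by less than its SD within genotype. Without single libraries it ran from -1.26 to -1.14. Its p was the smallest in 12 of the 24 and the second smallest in 8, and it ranked 38 without a low-count filter, 23 without the first litter date, 4 without the second and 5 without the third. All these settings use the values that chose the gene, so the sign and ranks of Trim52 here are descriptions. Other TRIM genes called numbered 0, and 2 by DESeq2, 2 by limma voom with quality weights and 0 to 1 without single libraries (Trim35 without heterozygous 1). Called neighbours numbered 0, and 1 without a low-count filter (5430440P10Rik) and 0 to 2 without single libraries (Rbm26 and 5430440P10Rik without heterozygous 1). Called NF-kB genes numbered 0, and 0 to 1 without single libraries (Map3k7 without heterozygous 1). Over all genes, the shares called were 3.07% without heterozygous 1 and 0.561% without a low-count filter. They were 3.13% by DESeq2 and 2.65% by limma voom. The cause was not tested for any of these calls.

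With the replicate block in the model, the Trim52 difference was -1.19 and no call in these lists changed. Labelled numbers do not pair the libraries: same-numbered deviations correlated at -0.262 to 0.593, and not every library correlated best with its own number.

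Of 41 other genes named, 5 turned sign under some alternative, and the cause was not tested. Trim26 was at 0.17 with voom, 0.12 with litter date in the model, 0.0456 with the replicate block, 0.12 without the first date and -0.18 to 0.19 without single libraries. Trim27 was at 0.0469 with voom, 0.0254 with litter date, 0.19 without the first date and -0.19 to 0.0333 without single libraries. Trim36 was at 0.0267 with litter date, 0.0359 without the first date and -0.15 to 0.12 without single libraries. Without the second date, Trim37 was at -0.0355 and Gm10076 at -0.0253.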
